A study of Mus musculus with 40 samples.

Results

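Interleukin-1β (IL-1β) and transforming growth factor β (TGFβ) were compared directly in mouse cardiac fibroblasts with intact TAK1, as 4 LacZ IL-1β libraries against 4 LacZ TGFβ libraries, 8 of the 40 libraries of the study. Libraries were taken by their labels and paired by replicate number, and the comparison covers 25210 of 55414 genes, those with at least 10 counts over the 40 libraries. The cells came from hearts of adult C57BL/6J_TAK1fl/fl mice, in which loxP sites flank exon 2 of *Map3k7*, the gene for the kinase TAK1. They were used at passage 1, transduced with a CMV-driven adenovirus that carries LacZ (control) or iCre (Cre recombinase), rested, serum-starved and given IL-1β at 15 ng/ml or TGFβ at 10 ng/ml for 24 h. LacZ fibroblasts thus carry both floxed alleles, a viral load and prior culture with bFGF and serum, as do the 4 LacZ CTRL libraries without ligand. The 8 iCre libraries with the same 2 ligands are used at the end. Doses differed between the ligands and a single time was sampled, so that the values describe these doses at 24 h. The replicates are described in the study as male biological replicates. It is not said whether libraries of the same number share an animal or a culture. The p-values rest on the spread of these libraries that is left after a term for each replicate number.

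IL-1β binds a receptor of the interleukin-1 family that recruits MyD88 and IRAK kinases, through which TAK1 activates the IκB kinases and hence NF-κB, together with p38 and JNK. TGFβ binds a receptor serine kinase that phosphorylates SMAD2 and SMAD3, and it is the best known inducer of the myofibroblast, a fibroblast with smooth muscle actin fibres that deposits matrix. In the injured heart IL-1β is known as an early inflammatory signal for fibroblasts and TGFβ as a signal of repair and scar formation.

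The 8 libraries held between 28888257 and 51228185 counts. Values are given as CPM, read counts scaled to a common library size with TMM factors, which correct for a few abundant genes that take many reads. The 10 most abundant genes took between 7.27% and 11.7% of counts. All 10 fibroblast markers were at 1 CPM or more on average, with a summed level of 36618 to 69714 CPM with IL-1β and 57153 to 66622 CPM with TGFβ. The 7 leukocyte and macrophage markers summed to 47.4 to 159 CPM with IL-1β and 23.4 to 88.7 CPM with TGFβ, and 4 of 7 were called higher with IL-1β, against 16.1% of all genes tested, or 1 of 7 without the replicate block. Their part in the immune genes was not tested, and fewer cells of a type and less RNA per cell cannot be told apart in bulk samples. The 5 pericyte markers summed to 324 to 858 CPM with IL-1β and 728 to 1275 CPM with TGFβ, with 2 higher and 2 lower, or 0 and 1 without the block, and their part in the contractile genes was not tested. The summed endothelial, cardiomyocyte and mesothelial or Schwann markers each stayed at or below 15 CPM in all of the 8 libraries.

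Of the 3 genes that mark this comparison, *Nos2* was far higher with IL-1β, *Acta2* was higher with TGFβ, and *Ptgs2* was also higher with TGFβ although it is best known as an inflammatory gene. *Nos2* (ENSMUSG00000020826, GRCm38 chromosome 11, 78920787 to 78960254, plus strand) encodes inducible nitric oxide synthase. It was at 205, 362, 373 and 489 CPM in IL-1β replicates 1 to 4 and at 0, 0.306, 0.0267 and 0.114 CPM in the TGFβ replicates, where 0, 13, 1 and 3 reads were counted. The groups did not overlap (log2 fold change 11.52 with SE 0.30 and adjusted p = 3.52e-12, where SE is the standard error and p comes from the quasi-likelihood test of edgeR, adjusted over all genes by Benjamini-Hochberg). With so few reads the fold change moved when replicate 2 was left out, to 12.96. In CTRL *Nos2* was at 0, 0.22, 0.0887 and 0.0581 CPM, and TGFβ and CTRL libraries overlapped.

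*Acta2* (ENSMUSG00000035783, GRCm38 chromosome 19, 34241090 to 34255590, minus strand) encodes smooth muscle α-actin, the defining protein of myofibroblasts. It was at 504, 371, 276 and 203 CPM in IL-1β replicates 1 to 4 and at 3979.9, 7058, 2839 and 2108 CPM in the TGFβ replicates. All TGFβ libraries lay above all IL-1β libraries, and TGFβ was higher in 4 of 4 pairs (log2 fold change −3.47 with SE 0.18 and adjusted p = 1.55e-09). The gene was not at its CTRL level with IL-1β: CTRL fibroblasts had 177 ± 63.7 CPM (SD, n = 4), and *Acta2* rose both with IL-1β (log2 fold change 0.93) and with TGFβ (4.43).

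*Ptgs2* (ENSMUSG00000032487, GRCm38 chromosome 1, 150100031 to 150108227, plus strand) encodes cyclooxygenase-2, which makes the precursor of the prostaglandins. Its levels were 94.4, 191, 128 and 182 CPM in IL-1β replicates 1 to 4 against 425, 956, 611 and 491 CPM in the TGFβ replicates. The TGFβ libraries were higher in 4 of 4 pairs and the groups did not overlap (log2 fold change −2.03 with SE 0.14 and adjusted p = 2.35e-08). Both ligands raised it over the CTRL level of 11.4 ± 6.11 CPM (SD, n = 4), with log2 fold changes of 3.79 for IL-1β and 5.85 for TGFβ. Among the 10 groups, the order of mean *Ptgs2* put both TGFβ groups first, at 654 CPM in iCre and 621 CPM in LacZ, and their ranges overlapped. For *Acta2* the TGFβ groups were likewise first, followed by LacZ TNFα at 636 CPM and LacZ IL-1β at 339 CPM, whose ranges overlapped too. For *Nos2* LacZ IL-1β was first, LacZ TNFα followed at 15.2 CPM, iCre IL-1β was at 9.46 CPM, and the 7 other groups had means of 0.168 CPM or less.

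**Figure D1:**
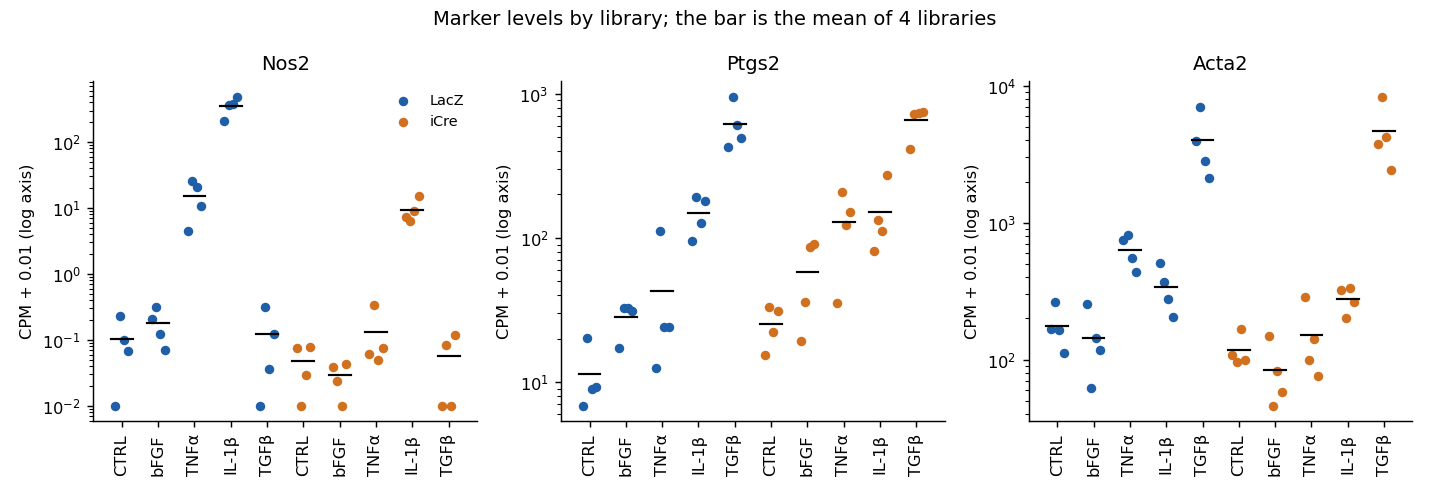
*Nos2*, *Ptgs2* and *Acta2* in each library of the 10 groups, as CPM + 0.01 on a log axis, with LacZ libraries in blue, iCre libraries in orange and a bar at the mean of 4. *Nos2* is highest with IL-1β in LacZ fibroblasts, whereas *Ptgs2* and *Acta2* are highest with TGFβ under both viruses.

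Across all genes, 8044 of 25210 were called at an adjusted p of at most 0.05. Of these 4048 were higher with IL-1β (16.1% of genes tested) and 3996 were higher with TGFβ (15.9%), and the median log2 fold change of all genes was 0.02. Scaled by raw library size instead of TMM, the split was 5420 to 2609 and the median 0.18, so that small differences depend on the scaling. At a difference of 2-fold or more, 1929 genes were higher with IL-1β and 1142 with TGFβ. Among 9602 genes with at least 10 CPM in the higher group, 137 were called at least 8-fold higher with IL-1β and 78 at least 8-fold higher with TGFβ. Beyond 32-fold there were 37 and 15 such genes.

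Against CTRL, 4098 genes rose with IL-1β (16.3%) and 4357 fell (17.3%), and 4935 genes rose with TGFβ (19.6%) and 5660 fell (22.5%). These contrasts share the CTRL libraries with each other and the treated libraries with the direct comparison, and serve below only to place levels. The fits hold a block, a term for each replicate number, and without it the IL-1β count was 5208 in place of 8455. With raw library sizes, 2338 genes rose and 7277 fell with IL-1β and 2520 rose and 9190 fell with TGFβ, with medians of all genes of −0.31 and −0.58 against −0.09 and −0.18 with TMM.

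**Figure D2:**
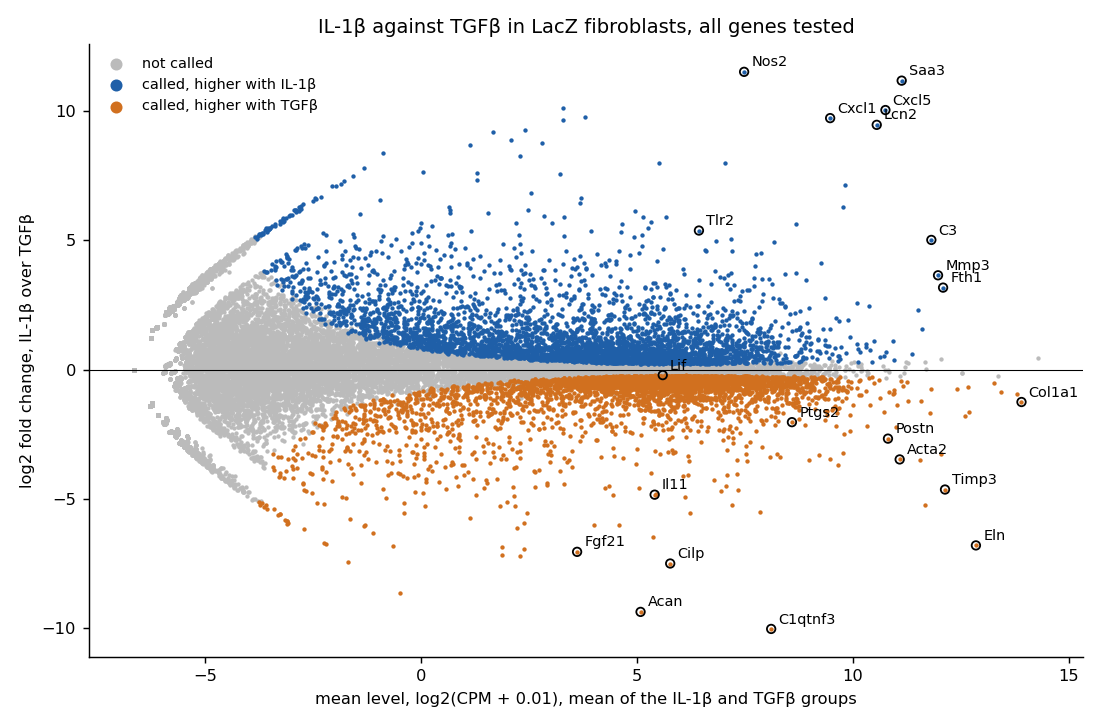
Log2 fold change of IL-1β over TGFβ in LacZ fibroblasts against the mean level of both groups, as log2(CPM + 0.01), for each of the 25210 genes tested. Called genes higher with IL-1β are blue, those higher with TGFβ are orange and the rest grey. *Nos2* and *Saa3* lie at the top and *C1qtnf3* and *Acan* at the bottom, while *Lif* lies near 0.

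Genes were ranked among those called with at least 10 CPM in the higher group and groups that did not overlap. Those with the largest differences included secreted proteins on both sides. On the IL-1β side they were *Nos2*, the acute-phase genes *Saa3* and *Lcn2*, the neutrophil attractants *Cxcl5* and *Cxcl1*, the granulocyte growth factor *Csf3*, and *Vnn3*, *Slc36a2*, *Spib* and *Sprr2e*. *Saa3*, a serum amyloid A protein, was at 5162, 4115, 4438 and 4184 CPM with IL-1β and at 1.19, 4.3, 1.39 and 1.55 CPM with TGFβ (log2 fold change 11.18 with SE 0.35 and adjusted p = 1.1e-11). *Lcn2*, which binds bacterial iron carriers, was at 3946, 1948, 2849.5 and 3238 CPM against 1.43, 4.8, 5.5 and 5.64 CPM (log2 fold change 9.47 with SE 0.39 and adjusted p = 1.72e-10). Each IL-1β library exceeded each TGFβ library by over 2 orders of magnitude for both genes. *Vnn3*, *Slc36a2* and *Spib* were at 19.4 ± 4.37, 19.5 ± 4.54 and 10.5 ± 2.81 CPM (SD, n = 4) with IL-1β but had only 2, 3 and 2 counts over the 4 TGFβ libraries. The ratios of their shares of total counts were 1566 (95% exact interval 433 to 12936), 1065 (364 to 5169.6) and 848 (234 to 7011), intervals that cover counting error only. *Csf3* and *Sprr2e* each had 4 counts over the TGFβ libraries, against 3816 and 1892 with IL-1β.

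*Spib*, which encodes an ETS factor known from lymphoid cells, was at 4.13 ± 2.08 CPM in CTRL (SD, n = 4), rose with IL-1β (log2 fold change 1.43) and fell with TGFβ (adjusted p = 1.55e-06). In CTRL *Saa3* was at 3.81 CPM and *Lcn2* at 3.82 CPM, levels within a factor of 2 of those with TGFβ.

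On the TGFβ side the largest differences were those of *C1qtnf3*, *Acan*, *Cilp*, *Fgf21*, *Gm32255*, *Eln*, *Heyl*, *Acta1*, *Col8a2* and *Rflna*. *Eln*, which encodes tropoelastin, the precursor of elastic fibres, was at 18253, 17019, 11131 and 11988 CPM with TGFβ and at 226, 96, 97.9 and 121 CPM with IL-1β (log2 fold change −6.80 with SE 0.21 and adjusted p = 8.94e-12). Its CTRL level was 199 ± 119 CPM (SD, n = 4), below the lowest TGFβ library by a factor of over 50. *Acan*, which encodes the cartilage proteoglycan aggrecan, was at 18.4, 137, 79 and 36.7 CPM with TGFβ and had 13 counts in all over the 4 IL-1β libraries. *Cilp*, another gene first known from cartilage, was at 39.1, 197, 67.1 and 131 CPM against 1.03, 0.217, 0.463 and 0.499 CPM (log2 fold change −7.50 with SE 0.41 and adjusted p = 2.55e-09). *Fgf21*, an endocrine fibroblast growth factor, was at 24.3 ± 14.3 CPM against 0.175 ± 0.0754 CPM (SD, n = 4).

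*C1qtnf3*, a secreted C1q and TNF family protein, was at 21.2, 2108, 35.1 and 39.4 CPM with TGFβ and at 0.0662, 1.98, 0 and 0.0249 CPM with IL-1β. Replicate 2 stood apart under both ligands, and its TGFβ level was over 50 times that of any other TGFβ library. The log2 fold change was −10.03 with SE 0.22 and adjusted p = 9.94e-13. That TGFβ was higher in 4 of 4 pairs follows from the choice of genes without overlap. *Acta1*, the skeletal muscle α-actin, showed the same library apart, at 3.48, 106, 10.6 and 6.55 CPM with TGFβ against 0.0993, 0.624, 0.498 and 0.224 CPM with IL-1β. Its log2 fold change was −6.01 and became −4.66 without replicate 2. *Col8a2*, at 47.6 ± 31.1 CPM with TGFβ (SD, n = 4), was also highest in replicate 2 and had a log2 fold change of −6.01, or −5.42 without that number and −6.63 without replicate 1. The fold changes of *Acan* and *Cilp* also moved by over 1.5 times, to −8.54 and −6.82 without replicate 2, to −10.27 for *Acan* without replicate 3 and to −8.33 for *Cilp* without replicate 1. *Heyl*, a Notch target, went the other way, with 105, 15, 116 and 92.7 CPM in TGFβ replicates 1 to 4. *Rflna* was at 12.2, 6.59, 10.4 and 11.7 CPM with TGFβ and at 0.0993, 0.217, 0.249 and 0.0748 CPM with IL-1β, and no TGFβ library stood apart.

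The largest differences in mean CPM were those of *Mmp3*, *C3*, *Fth1*, *Saa3* and *Dcn* for IL-1β and *Eln*, *Col1a1*, *Fn1*, *Timp3* and *Col5a2* for TGFβ. *Fth1*, the ferritin heavy chain that stores iron, was at 9174, 6120.2, 7736 and 8261 CPM with IL-1β and 769, 766, 1049.8 and 919 CPM with TGFβ (log2 fold change 3.17 with SE 0.14 and adjusted p = 3.69e-10). It rose with IL-1β (log2 fold change 2.03) and fell with TGFβ (−1.12) from 1916 ± 129 CPM in CTRL (SD, n = 4). *C3*, the central complement protein, was at 8299, 6530.4, 6859 and 6219 CPM against 207, 129, 259 and 319 CPM (log2 fold change 5.02 with SE 0.21 and adjusted p = 1.9e-10). *Fn1*, which encodes fibronectin, had the log2 fold change of smallest size among the 10 genes (−0.93). It was at 11803, 7498, 11187 and 8270.1 CPM with IL-1β and 21472, 13968, 17619 and 21782 CPM with TGFβ, and the groups still did not overlap.

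Promoters of 3 named genes are shown, chosen with their motif matches known: *Cxcl1* as a chemokine gene higher with IL-1β, and *Acta1* and *Ptgs2* as an actin gene and an inflammatory gene higher with TGFβ. Each is the 250 bases upstream of the RefSeq start site on GRCm38.p6, written 5′ to 3′ on the strand of the gene, with motif matches in capitals. *Cxcl1* is at chr5:90890995-90891244, plus strand, *Acta1* at chr8:123894776-123895025, minus strand and *Ptgs2* at chr1:150099781-150100030, plus strand.
Cxcl1: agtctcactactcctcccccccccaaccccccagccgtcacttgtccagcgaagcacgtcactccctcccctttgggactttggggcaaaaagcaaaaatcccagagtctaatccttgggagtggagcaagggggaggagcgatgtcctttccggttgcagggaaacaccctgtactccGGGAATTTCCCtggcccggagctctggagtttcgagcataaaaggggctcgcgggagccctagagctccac
Acta1: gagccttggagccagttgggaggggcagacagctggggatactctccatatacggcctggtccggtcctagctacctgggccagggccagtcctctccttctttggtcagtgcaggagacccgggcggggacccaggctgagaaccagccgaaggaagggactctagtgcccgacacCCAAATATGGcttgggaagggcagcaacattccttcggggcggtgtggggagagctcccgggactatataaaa
Ptgs2: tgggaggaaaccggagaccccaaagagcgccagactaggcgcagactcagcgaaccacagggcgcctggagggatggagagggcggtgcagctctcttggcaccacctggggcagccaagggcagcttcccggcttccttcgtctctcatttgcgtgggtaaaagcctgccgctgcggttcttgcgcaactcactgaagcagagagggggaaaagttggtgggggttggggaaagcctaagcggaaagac
In *Cxcl1* the capitals are a pair of overlapping matches to the κB motif bound by NF-κB, between −71 and −61 from the start site. In *Acta1* they are a CArG box, the motif of serum response factor, between −73 and −64. No match to κB, CArG, TGANTCA (AP-1) or TGACGTCA (CRE) was in the *Ptgs2* window. The RefSeq window of *Acta2* held none either, but most of it lies inside the annotated gene and not upstream of it. On both strands, 3.9% of all 32851 windows held a κB match, 1.47% a CArG box, 6.75% TGANTCA and 1.55% TGACGTCA. Matches to different motifs were counted separately, and in *Cxcl1* only the κB pair overlapped. Of the 20 genes with the largest differences, 13 had a window. A κB match was in 2 of 6 higher with IL-1β and 1 of 7 higher with TGFβ, and a CArG box in 0 of 6 and 1 of 7. For *Lcn2* and *Acan* the RefSeq start site lies over 250 bases from the start of the annotated gene, and for *Gm32255* it lies 38473 bases away. These windows were kept in the counts, and the match of *Acan* is the 1 κB match on the TGFβ side.

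Genes were then grouped into 22 lists by function, and for each list the members called and the median log2 fold change are given, to be read against 16.1% and 15.9% of all genes and the median of 0.02. Of the 22 lists, 17 were tested in full and 1 member each of the prostanoid, MMP, Toll-like receptor, complement and fibroblast identity lists had fewer than 10 counts. Without the block or with raw library sizes, the monocyte chemokine, cytokine and Toll-like receptor lists each had 1 member called higher with TGFβ in place of 2. The highest medians were those of chemokines, complement and interferon genes and the lowest those of contractile and amino acid synthesis genes.

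**Figure D3:**
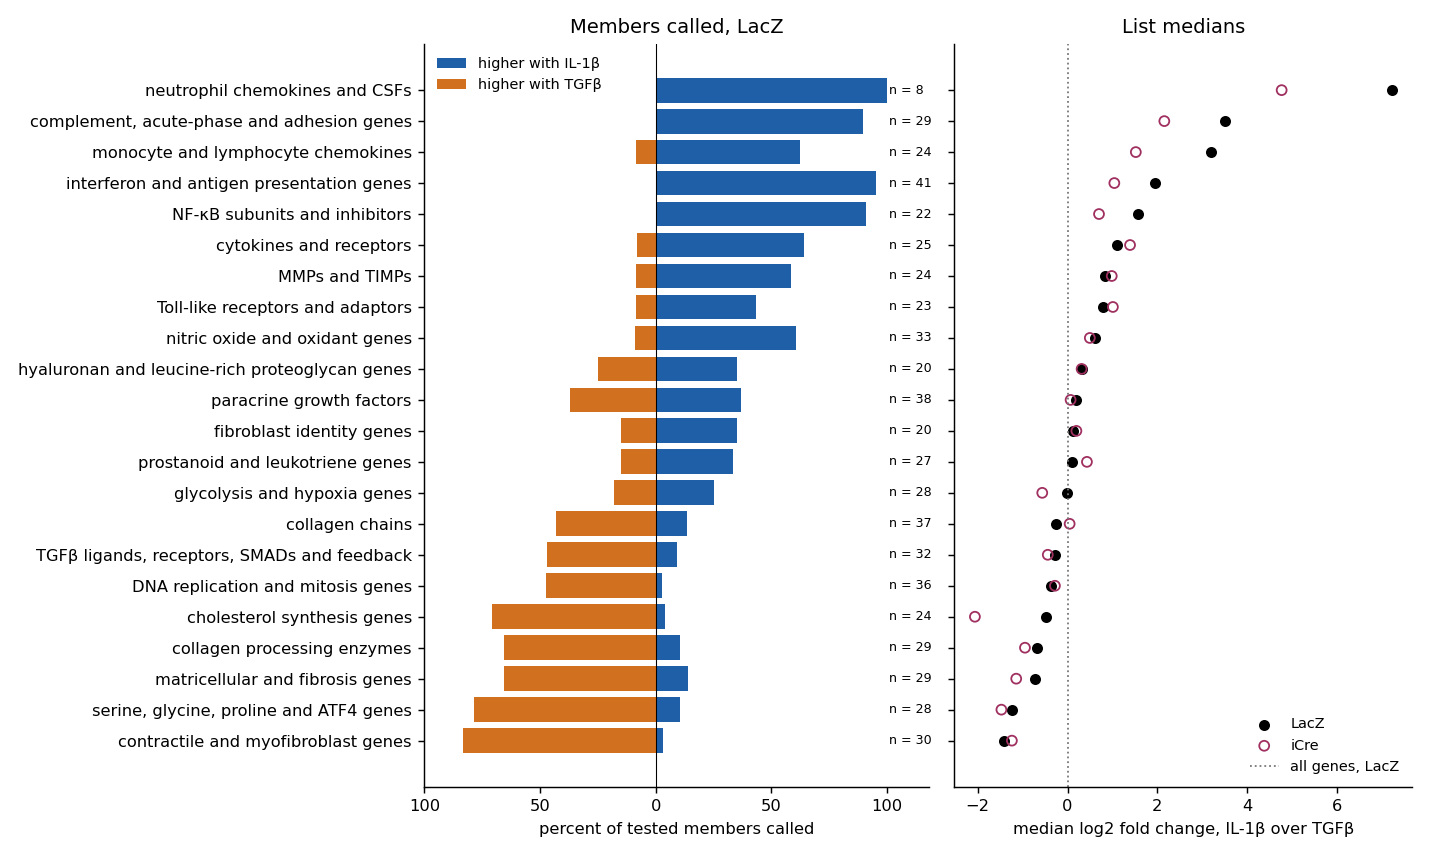
Left, the percentage of tested members of each list called higher with IL-1β (blue, to the right) or with TGFβ (orange, to the left) in LacZ fibroblasts, with the number of members tested. Right, the median log2 fold change of IL-1β over TGFβ of the members in LacZ (filled) and iCre (open) fibroblasts, where the dotted line is the median of all genes in LacZ; neutrophil chemokines are at the top (7.22) and contractile genes at the bottom (−1.41).

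All 8 neutrophil chemokines and colony-stimulating factors, which recruit and sustain granulocytes and macrophages, were higher with IL-1β, with a median log2 fold change of 7.22. *Cxcl5* was at 3703, 2835, 3257 and 3986 CPM with IL-1β and 1.35, 1.88, 4.43 and 7.88 CPM with TGFβ (log2 fold change 10.04 with SE 0.36 and adjusted p = 4.41e-11). *Cxcl1* (ENSMUSG00000029380, GRCm38 chromosome 5, 90891241 to 90893115, plus strand) was at 1969, 804, 1401 and 1501 CPM against 1.1, 0.753, 2.64 and 2.54 CPM (log2 fold change 9.73 with SE 0.27 and adjusted p = 5.4e-12). IL-1β libraries were above TGFβ libraries without overlap for both. *Cxcl2* was at 9.7 ± 1.5 CPM with IL-1β and 0.0291 ± 0.0233 CPM with TGFβ (SD, n = 4). With TGFβ against CTRL, *Cxcl1* fell by 2.19 and *Cxcl5* by 2.76 on the log2 scale, whereas *Cxcl2* and *Csf3* were not called (adjusted p = 0.0771 and 0.984). Against CTRL, 7 of the 8 rose and 1 fell with IL-1β, whereas 1 rose and 3 fell with TGFβ. The TGFβ counts were 0 and 4 with raw library sizes.

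Of 24 chemokines for monocytes and lymphocytes, 15 were higher with IL-1β and 2 with TGFβ (median 3.19). *Ccl2* and *Ccl7*, ligands of the monocyte receptor CCR2, were at 1776 CPM with IL-1β and 13.1 CPM with TGFβ, and at 800.1 CPM with IL-1β and 18.2 CPM with TGFβ. Their log2 fold changes were 7.13 and 5.63. *Ccl5*, a T cell attractant, was at 68.7 ± 31.6 against 1.46 ± 1.86 CPM (SD, n = 4). The reverse was seen for *Ccl17*, which attracts cells with CCR4. It was at 2.22, 0.516, 1.17 and 1.67 CPM with IL-1β and 40.3, 3.46, 19.9 and 14.1 CPM with TGFβ (log2 fold change −3.58 with SE 0.21 and adjusted p = 4.96e-09), and was at 0.467 CPM in CTRL. *Cxcl14* was the other gene called higher with TGFβ, by 0.32 on the log2 scale, a call that was lost without replicate 1, 3 or 4 and under most other settings. Against CTRL, 17 of the 24 rose and 1 fell with IL-1β, whereas 3 rose and 10 fell with TGFβ. For IL-1β these were 17 and 2 with raw library sizes. Those for TGFβ were 3 and 4 without the block.

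Among 25 cytokines and their receptors, 16 were higher with IL-1β and 2 with TGFβ (median 1.09). *Il13ra2*, the decoy receptor for IL-13, was at 19.4 ± 5.45 CPM with IL-1β and 0.544 ± 0.296 CPM with TGFβ (SD, n = 4). *Lifr*, *Il33* and *Tslp* followed with log2 fold changes of 2.83, 2.38 and 2.32, and the call for *Il33* was lost with edgeR's robust estimation of the spread, an alternative chosen after seeing the data (adjusted p = 0.0555). Against CTRL these 3 rose with IL-1β (0.35, 0.97 and 0.43 on the log2 scale) and fell further with TGFβ (−2.45, −1.38 and −1.87). *Il11* and *Lif*, a pair of IL-6 family cytokines, were not higher with IL-1β. *Il11* was at 2.12, 2.09, 3.13 and 3.86 CPM with IL-1β and 53.8, 58.4, 109 and 108 CPM with TGFβ, without overlap and higher with TGFβ in 4 of 4 pairs (log2 fold change −4.83 with SE 0.11 and adjusted p = 9.94e-13). *Lif* was at 40.3, 42.5, 39.8 and 53.6 CPM with IL-1β and 76.1, 44.1, 44.1 and 46.6 CPM with TGFβ, and the groups overlapped (log2 fold change −0.21 with SE 0.13 and adjusted p = 0.3). Replicate 1 of TGFβ stood above its group, and without replicate 1 the log2 fold change was 0.05. Both ligands raised *Lif* from 3.53 CPM in CTRL, by 3.66 and 3.90 on the log2 scale. *Il6*, named after its values were seen, was at 428, 192, 262 and 392 CPM with IL-1β and 96.4, 41.8, 106 and 93.5 CPM with TGFβ (log2 fold change 1.95 with SE 0.13 and adjusted p = 3.27e-08), and both were above 2.44 CPM in CTRL.

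Of 22 genes for NF-κB subunits, their inhibitors and regulators, 20 were higher with IL-1β and 0 with TGFβ (median 1.56). The genes with the largest differences included negative regulators. *Zc3h12a*, an RNase that degrades cytokine mRNAs, was at 182 ± 26.8 CPM with IL-1β and 7.47 ± 0.918 CPM with TGFβ (SD, n = 4; log2 fold change 4.62 with SE 0.10 and adjusted p = 9.94e-13). *Nfkbia*, which encodes IκBα, was at 159 CPM with IL-1β and 14.3 CPM with TGFβ (log2 fold change 3.49), and *Nfkbiz* and *Birc3* differed by 3.32 and 2.98. At least a 2-fold difference was called for 13 of the 22. Against CTRL, 19 of the 22 rose and 1 fell with IL-1β, whereas 3 rose and 10 fell with TGFβ. The TGFβ counts were 2 and 17 with raw library sizes.

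Of 23 Toll-like receptors and adaptors, which sense microbial and damage products, 10 were higher with IL-1β and 2 with TGFβ (median 0.78). *Tlr2*, the receptor for lipopeptides, was at 153, 141, 181 and 199.9 CPM with IL-1β and 1.79, 4.3, 4.99 and 6.06 CPM with TGFβ (log2 fold change 5.38 with SE 0.19 and adjusted p = 3.95e-11). It was at 12.2 ± 1.39 CPM in CTRL (SD, n = 4), rose with IL-1β and fell with TGFβ (log2 fold change −1.58, adjusted p = 0.000253). *Cd14*, its co-receptor, was at 20.5 CPM with IL-1β and 1.7 CPM with TGFβ, *Tlr5* at 3.9 CPM with IL-1β and 0.664 CPM with TGFβ, and *Irak3*, an inhibitor of the pathway, at 62.2 CPM with IL-1β and 11.9 CPM with TGFβ. *Irak2*, a kinase of the same pathway, was higher with TGFβ (log2 fold change −0.88). Against CTRL, 10 of the 23 rose and 5 fell with IL-1β, whereas 1 rose and 12 fell with TGFβ. For IL-1β these were 7 and 7 with raw library sizes, and 9 and 2 without the block.

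Complement, acute-phase and adhesion genes showed 26 of 29 members higher with IL-1β and 0 higher with TGFβ (median 3.51). Besides *Saa3*, *Lcn2* and *C3* these were *Steap4*, a metalloreductase, at 1707, 1778, 1971 and 1380.3 CPM with IL-1β and 9.99, 16.5, 50.7 and 26 CPM with TGFβ (log2 fold change 6.30 with SE 0.31 and adjusted p = 7.77e-10), and *C1rb*, at 4.88 ± 1.81 CPM against 0.0271 ± 0.034 CPM (SD, n = 4). *C1rb* is a near copy of *C1ra*, and the *Sprr2* genes named above and below are close copies too, so that reads shared between copies make their values uncertain. Against CTRL, 22 of the 29 rose and 2 fell with IL-1β, whereas 2 rose and 19 fell with TGFβ. The IL-1β counts were 19 and 0 without the block.

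Interferon response and antigen presentation genes were higher with IL-1β in 39 of 41 cases and in 0 with TGFβ (median 1.94). Without the block, 28 were called. *Gbp2*, a guanylate-binding protein, was at 284, 485, 450.3 and 569.9 CPM with IL-1β and 5.41, 31.1, 19.8 and 38 CPM with TGFβ (log2 fold change 4.50 with SE 0.24 and adjusted p = 2.17e-09). *Gbp5*, *Rsad2* and the immunoproteasome subunit *Psmb9* had log2 fold changes of 5.22, 3.89 and 3.53. *Rsad2* was at 30.4 CPM in CTRL against 53.6 CPM with IL-1β and 3.83 CPM with TGFβ, and *Psmb9* at 9.02 CPM against 12.6 CPM with IL-1β and 1.14 CPM with TGFβ. Against CTRL, 30 of the 41 rose and 0 fell with IL-1β, whereas 1 rose and 37 fell with TGFβ. For IL-1β these were 22 and 4 with raw library sizes, and 10 and 0 without the block. Those for TGFβ were 1 and 20 without the block.

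Of 33 genes of nitric oxide and oxidant metabolism, 20 were higher with IL-1β and 3 with TGFβ (median 0.61). *Sod2*, the mitochondrial superoxide dismutase, was at 895, 684, 717 and 754 CPM with IL-1β and 58.3, 51, 64.7 and 57.8 CPM with TGFβ (log2 fold change 3.73 with SE 0.11 and adjusted p = 8.94e-12). The arginine carriers were split. *Slc7a2*, the carrier known to supply arginine for nitric oxide synthesis in inflamed cells, was at 1324, 793, 1290.2 and 1254 CPM with IL-1β and 54.4, 64.6, 75.3 and 72.6 CPM with TGFβ (log2 fold change 4.13), whereas *Slc7a1* was at 82 CPM with IL-1β and 279 CPM with TGFβ (−1.80). The NADPH oxidases were split as well. *Cybb*, the phagocyte oxidase also known from macrophages, was at 9 CPM with IL-1β and 0.985 CPM with TGFβ (3.34), and *Nox4*, an oxidase of fibroblasts and smooth muscle, was at 11.6, 22.2, 9.25 and 10.3 CPM with IL-1β and 160.4, 103, 137 and 126 CPM with TGFβ (log2 fold change −3.35 with SE 0.21 and adjusted p = 1.41e-08).

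Prostanoid and leukotriene genes were divided. Of 27 tested, 9 were higher with IL-1β and 4 with TGFβ (median 0.11). *Ptges*, the synthase that turns the product of *Ptgs2* into prostaglandin E2, was at 54, 83.3, 68.5 and 81.4 CPM with IL-1β and 5.85, 16.1, 8.33 and 12.7 CPM with TGFβ (log2 fold change 2.83 with SE 0.13 and adjusted p = 3.69e-10), the reverse of *Ptgs2*. The receptors *Ptgir* and *Ptgfr*, for prostacyclin and prostaglandin F2α, were at 43 CPM with IL-1β and 4.9 CPM with TGFβ and at 22.6 CPM with IL-1β and 2.79 CPM with TGFβ. Against CTRL both rose with IL-1β (1.29 and 0.71 on the log2 scale) and fell with TGFβ (−1.90 and −2.36). *Ptges2*, another synthase, had a log2 fold change of 1.53. *Hpgd*, which degrades prostaglandins, was called higher with TGFβ (−1.26) at levels near 1 CPM, and the call was lost without replicate 1, 2 or 3 and under several other settings.

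Of 24 matrix metalloproteinases and their inhibitors (TIMPs), 14 were higher with IL-1β and 2 with TGFβ (median 0.84). *Mmp3*, stromelysin 1, was at 10669.8, 4379.9, 6563 and 8098 CPM with IL-1β and 337, 497, 782 and 758 CPM with TGFβ (log2 fold change 3.65 with SE 0.27 and adjusted p = 5.92e-08). Compared with 1231 ± 211 CPM in CTRL (SD, n = 4), it rose with IL-1β and fell with TGFβ (2.55 and −1.10 on the log2 scale). The collagenases *Mmp13* and *Mmp8* were at 23.5 CPM with IL-1β and 1.81 CPM with TGFβ and at 10.8 CPM with IL-1β and 0.733 CPM with TGFβ, and the macrophage elastase *Mmp12* was at 8.7 CPM with IL-1β and 0.462 CPM with TGFβ. The inhibitor *Timp3*, which is bound to matrix, showed the opposite order, with 659, 171, 328 and 281 CPM with IL-1β and 12598, 4274, 8941 and 8639 CPM with TGFβ (log2 fold change −4.63 with SE 0.15 and adjusted p = 1.61e-11). From 1645 ± 977 CPM in CTRL (SD, n = 4), *Timp3* fell with IL-1β (−2.12) and rose with TGFβ (2.54). *Mmp17*, the other gene higher with TGFβ, differed by −1.15.

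Contractile and myofibroblast genes were higher with TGFβ in 25 of 30 cases and with IL-1β in 1 (median −1.41). *Tagln*, an actin-binding protein of smooth muscle, was at 162, 137, 82.3 and 76 CPM with IL-1β and 2005, 1953, 1117 and 925 CPM with TGFβ (log2 fold change −3.69 with SE 0.11 and adjusted p = 8.94e-12). *Cnn1*, which encodes calponin, was at 1.82, 3.61, 2.1 and 1.32 CPM against 41.9, 237, 38.4 and 23.5 CPM (log2 fold change −4.82 with SE 0.25 and adjusted p = 1.71e-09). *Actg2* was highest in replicate 2 of TGFβ, and its log2 fold change of −3.76 became −2.82 without it, a call lost with robust estimation. The exception was *Mylk*, myosin light chain kinase, at 13.3, 112, 9.9 and 5.04 CPM with IL-1β and 4.5, 28.2, 2.43 and 3.52 CPM with TGFβ (log2 fold change 1.60). Its call was lost without the replicate block (adjusted p = 0.232). Against CTRL, 8 of the 30 rose and 11 fell with IL-1β, whereas 24 rose and 3 fell with TGFβ. The IL-1β counts were 6 and 16 with raw library sizes, and 5 and 3 without the block. Those for TGFβ were 23 and 1 without the block.

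Matricellular and fibrosis genes, a list of matrix proteins that also holds cell surface proteins, transcription factors and the microtubule linker *Clip2*, were higher with TGFβ in 19 of 29 cases and with IL-1β in 4 (median −0.74), or 15 and 2 without the block. *Postn*, which encodes periostin, was at 672, 228, 499 and 652 CPM with IL-1β and 2936, 3063, 2676 and 3643 CPM with TGFβ (log2 fold change −2.67 with SE 0.21 and adjusted p = 1.46e-07). *Postn* fell with IL-1β and rose with TGFβ, from 715 ± 207 CPM in CTRL (SD, n = 4). *Cthrc1* and *Meox1*, known from activated fibroblasts of injured hearts, were at 19.3 CPM with IL-1β and 253 CPM with TGFβ and at 4.45 CPM with IL-1β and 59 CPM with TGFβ. Replicate 2 raised both means of *Cthrc1*, which was at 6.49, 55.4, 9.22 and 6.08 CPM with IL-1β and 112, 560, 185 and 153 CPM with TGFβ. *Meox1* encodes a homeobox transcription factor and no matrix protein. *Clip2* was called higher with IL-1β by 0.28 with groups that overlapped, and its call was lost without the block (adjusted p = 0.0938), without replicate 3 (0.0521) and without replicate 4 (0.166). *Ccn2*, the connective tissue growth factor, named after its values were seen, was at 1221, 235, 406 and 410.2 CPM against 7389, 4465, 5259.5 and 4665 CPM (log2 fold change −3.50). The members higher with IL-1β included *Tnxb*, a tenascin, at 80.9, 77.4, 91.1 and 63.5 CPM against 11.2, 6.14, 8.49 and 5.68 CPM (log2 fold change 3.37 with SE 0.12 and adjusted p = 4.09e-11), and *Efemp1*, a fibulin, at 658 CPM with IL-1β and 153 CPM with TGFβ. CTRL levels of *Tnxb* and *Efemp1* were 198 and 992 CPM, above both treated groups.

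Collagen chains were mixed. Of 37, 16 were higher with TGFβ and 5 with IL-1β (median −0.26), or 15 and 9 with raw library sizes and 12 and 3 without the block. *Col1a1* was at 12655, 6875, 8426 and 8316 CPM with IL-1β and 22137, 26433, 18460.4 and 19129.6 CPM with TGFβ (log2 fold change −1.25 with SE 0.17 and adjusted p = 3.78e-05), without overlap. It was not lower with IL-1β than in CTRL, where it was at 4907 ± 625 CPM (SD, n = 4), and it rose with both ligands (0.87 and 2.14 on the log2 scale). *Col5a2*, a chain of fibril-nucleating collagen V, was at 3395, 2499.7, 2349 and 2646 CPM against 10344, 10849.5, 8632 and 8428 CPM (log2 fold change −1.80 with SE 0.13 and adjusted p = 5.3e-08). Larger ratios were found for *Col7a1*, *Col11a1* and *Col12a1* (log2 fold changes −4.11, −3.45 and −3.23). *Col5a3*, another chain of collagen V, went the other way, at 340.0, 264, 235 and 227 CPM with IL-1β and 144, 60.3, 98.4 and 106 CPM with TGFβ (log2 fold change 1.45 with SE 0.14 and adjusted p = 1.19e-06).

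Collagen processing enzymes, which hydroxylate, fold and cross-link collagen, were higher with TGFβ in 19 of 29 cases and with IL-1β in 3 (median −0.69), or 19 and 6 with raw library sizes. *Lox*, which encodes lysyl oxidase, was at 5004, 2713, 2229 and 2983 CPM with IL-1β and 9254, 14944, 7708 and 8014 CPM with TGFβ (log2 fold change −1.62 with SE 0.20 and adjusted p = 1.42e-05). *Loxl4*, *Tll1* and *Loxl3* had log2 fold changes of −2.31, −1.97 and −1.28, and the procollagen proteinases *Adamts3* and *Adamts14* were higher with IL-1β (2.44 and 1.99). Against CTRL, 20 of the 29 rose and 2 fell with IL-1β, whereas 21 rose and 0 fell with TGFβ. For IL-1β these were 17 and 5 with raw library sizes, and 16 and 0 without the block. Those for TGFβ were 18 and 6 with raw library sizes.

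Of 32 genes for TGFβ ligands, receptors, SMADs and feedback, 15 were higher with TGFβ and 3 with IL-1β (median −0.28). *Pmepa1*, a feedback inhibitor of the pathway, was at 352, 224, 225 and 281 CPM with IL-1β and 1761, 1525, 1394 and 1391 CPM with TGFβ (log2 fold change −2.49 with SE 0.12 and adjusted p = 5.96e-10). *Smad7*, another feedback inhibitor, was at 32.5 CPM with IL-1β and 122 CPM with TGFβ. *Tgfbr3*, the co-receptor betaglycan, was at 227, 416, 198 and 230.1 CPM with IL-1β and 12.7, 28.3, 17.3 and 21.9 CPM with TGFβ (log2 fold change 3.76 with SE 0.13 and adjusted p = 3.05e-11), and *Smad3* was also higher with IL-1β (1.25). From 169 ± 109 CPM in CTRL (SD, n = 4), *Tgfbr3* fell with TGFβ (−2.94).

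**Figure D4:**
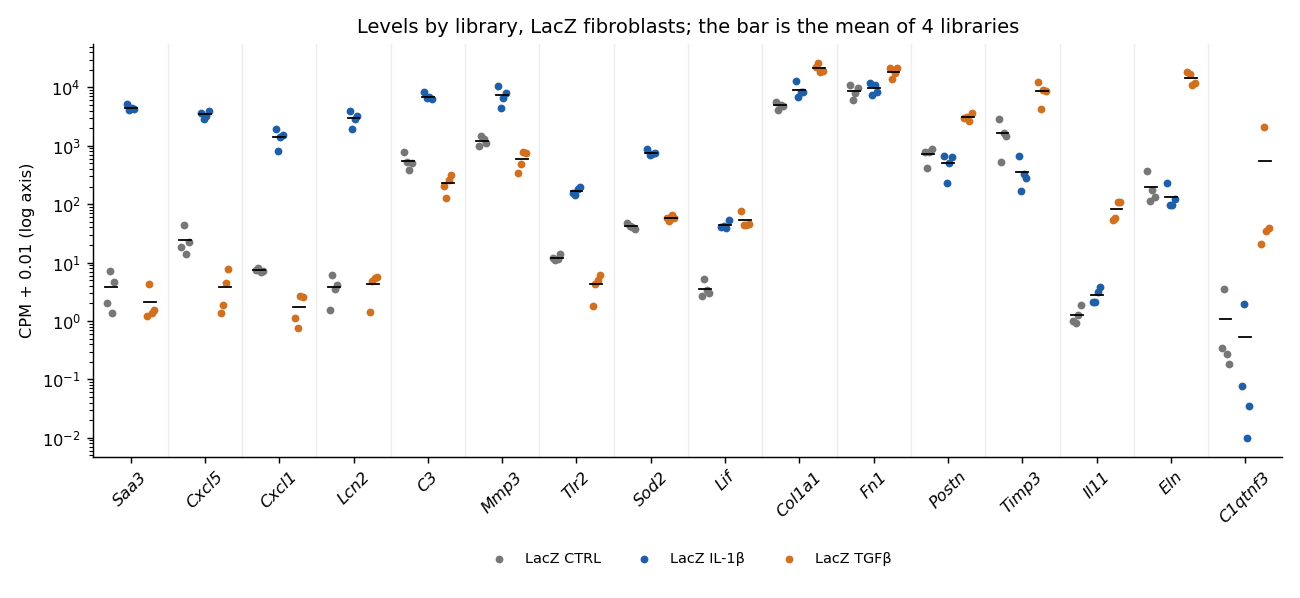
Levels of 16 named genes in each library of LacZ CTRL (grey), IL-1β (blue) and TGFβ (orange) fibroblasts, as CPM + 0.01 on a log axis, with a bar at the mean of 4 libraries. IL-1β libraries lie above TGFβ libraries from *Saa3* to *Sod2* and below them from *Col1a1* to *C1qtnf3*, *Lif* overlaps, and 1 TGFβ library of *C1qtnf3* lies far above the other 3.

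Hyaluronan and leucine-rich proteoglycan genes had 7 of 20 members higher with IL-1β and 5 with TGFβ (median 0.32), or 11 and 3 with raw library sizes and 4 and 2 without the block. *Dcn*, which encodes decorin, a proteoglycan that binds collagen and TGFβ, was at 6880.4, 2735, 4403 and 5428 CPM with IL-1β and 761, 668, 1210.3 and 1255 CPM with TGFβ (log2 fold change 2.31 with SE 0.19 and adjusted p = 1.79e-07). *Lum* and *Prelp* went the same way (1.87 and 1.55). *Fmod* and *Aspn* were higher with TGFβ in the direct fit, at 21.7 CPM with IL-1β and 73.3 CPM with TGFβ and at 35 CPM with IL-1β and 133 CPM with TGFβ, calls that were lost with robust estimation (adjusted p = 0.128 and 0.0966). Both fell with IL-1β against CTRL, by 2.30 and 2.21 on the log2 scale, and neither was called with TGFβ against CTRL (adjusted p = 0.818 and 0.477).

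Fibroblast identity genes were called in 7 (IL-1β) and 3 (TGFβ) of 20 cases (median 0.12), or 10 and 2 with raw library sizes and 4 and 2 without the block. *Pdgfra*, a receptor of resident fibroblasts, was at 1689, 2483, 1671 and 1669 CPM with IL-1β and 239.8, 373, 317 and 331 CPM with TGFβ (log2 fold change 2.59 with SE 0.12 and adjusted p = 5.3e-10). *Ly6a*, which encodes Sca-1, was at 399 CPM with IL-1β and 74.7 CPM with TGFβ (2.66), and *Pi16*, a marker of a fibroblast subset of the adventitia, at 173 CPM with IL-1β and 41.2 CPM with TGFβ (1.99). *Cd248* and *Pdgfrb* were higher with TGFβ (−0.81 and −0.75).

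Paracrine growth factors were divided evenly, with 14 of 38 higher with IL-1β and 14 with TGFβ (median 0.19). *Angptl4*, an inhibitor of lipoprotein lipase, was at 687, 497, 544 and 522 CPM with IL-1β and 19.3, 12.6, 24 and 19.1 CPM with TGFβ (log2 fold change 4.95 with SE 0.14 and adjusted p = 7.48e-12). *Fgf7* and *Fgf10*, growth factors for epithelia, were higher with IL-1β too (2.89 and 2.68), although the call for *Fgf10* was lost without the block (adjusted p = 0.0931). *Hbegf*, an EGF receptor ligand, was at 12.9, 6.46, 10.7 and 14.1 CPM with IL-1β and 219, 158, 262 and 202 CPM with TGFβ (log2 fold change −4.26 with SE 0.14 and adjusted p = 1.55e-11), and *Pdgfc* was at 8.08 CPM with IL-1β and 137 CPM with TGFβ (−4.08).

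Genes of serine, glycine and proline synthesis and other targets of ATF4, a factor of the amino acid response, were higher with TGFβ in 22 of 28 cases and with IL-1β in 3 (median −1.25), or 20 and 1 without the block. *Phgdh*, the first enzyme of serine synthesis, was at 30.6, 20.7, 15.2 and 23.9 CPM with IL-1β and 164, 190.0, 135 and 136 CPM with TGFβ (log2 fold change −2.80 with SE 0.13 and adjusted p = 7.02e-10). *Psph*, the last enzyme of that route, was at 14.3 CPM with IL-1β and 92.3 CPM with TGFβ, the amino acid carrier *Slc7a5* at 57.8 CPM with IL-1β and 549 CPM with TGFβ and *Chac1*, a glutathione-degrading enzyme, at 9.11 CPM with IL-1β and 75.7 CPM with TGFβ. *Glul*, glutamine synthetase, was higher with IL-1β (1.51). Against CTRL, 14 of the 28 rose and 3 fell with IL-1β, whereas 19 rose and 3 fell with TGFβ. The IL-1β counts were 10 and 7 with raw library sizes.

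Cholesterol synthesis genes were higher with TGFβ in 17 of 24 cases (median −0.49), 10 without the block, 12 with raw library sizes and 11 without replicate 3. *Cyp51*, which demethylates lanosterol, was at 296, 201, 157 and 197 CPM with IL-1β and 499.9, 595, 520.3 and 459 CPM with TGFβ (log2 fold change −1.30 with SE 0.14 and adjusted p = 3.4e-06). *Fdps*, which makes farnesyl diphosphate, differed by −1.11. *Abca1*, which exports cholesterol, was the only member higher with IL-1β, at 233 CPM with IL-1β and 52.5 CPM with TGFβ (2.11). Against CTRL, 23 of the 24 rose and 0 fell with IL-1β, whereas 23 rose and 1 fell with TGFβ. For IL-1β these were 21 and 1 with raw library sizes.

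Glycolysis and hypoxia genes showed a median of −0.01, with 7 of 28 higher with IL-1β and 5 with TGFβ. Against CTRL, 22 of the 28 rose and 3 fell with IL-1β, whereas 21 rose and 1 fell with TGFβ. The IL-1β counts were 21 and 0 without the block. Those for TGFβ were 18 and 3 with raw library sizes. *Slc16a1*, a lactate carrier, was at 180.4 CPM with IL-1β and 30.5 CPM with TGFβ, whereas the lactate exporter *Slc16a3* was at 105 CPM with IL-1β and 222 CPM with TGFβ (−0.98, a call lost with robust estimation at adjusted p = 0.153). Without replicate 2 there were 11 members higher with IL-1β, without replicate 4 there were 4, and without replicate 1 there were 8 higher with TGFβ. Of 36 DNA replication and mitosis genes, 17 were higher with TGFβ and 1 with IL-1β (median −0.38). *Mcm6*, a subunit of the replicative helicase, was at 21.8 CPM with IL-1β and 65 CPM with TGFβ (−1.58). Only 5 were called higher with TGFβ without the block, 11 with raw library sizes and 7 without replicate 3.

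The same comparison in iCre fibroblasts, in which TAK1 was targeted, asks which differences between IL-1β and TGFβ were larger or smaller after Cre. *Map3k7* was at 237, 199, 211 and 233 CPM with IL-1β and 229, 222, 222 and 233 CPM with TGFβ in LacZ libraries. In iCre libraries it was at 129, 124, 122 and 129.9 CPM and 154, 126, 150.4 and 153 CPM, lower without overlap, although reads outside the deleted exon were counted too. In iCre fibroblasts 4418 genes were higher with IL-1β (17.5%) and 3771 with TGFβ (15.0%), with a median of 0.12. The split was 7254 to 2077 with raw library sizes, with a median of 0.38. The difference between the contrasts, tested as an interaction over 16 libraries, was called for 707 genes. It was positive, with a larger IL-1β over TGFβ ratio in iCre, for 293 (1.16%) and negative for 414 (1.64%). This count was 125 without the replicate block, 273 without replicate 3 and 417 without replicate 4, and the split was 504 to 263 with raw library sizes.

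The largest negative differences were those of *Vnn3*, *Sprr2b*, *Spib*, *Saa3* and *Trdc*, all genes that were higher with IL-1β in LacZ fibroblasts, the place of *Vnn3* resting on replicate 1. *Saa3* was at 321, 176, 115 and 198 CPM with IL-1β and 3.21, 3.11, 1.83 and 1.52 CPM with TGFβ in iCre fibroblasts. Its IL-1β libraries thus still lay above its TGFβ libraries, and the difference between the contrasts was −4.71 on the log2 scale (SE 0.44 and adjusted p = 1.31e-05). *Sprr2b*, an epithelial cornification gene, was at 164, 39.2, 87.4 and 73.1 CPM with IL-1β in the LacZ libraries and 8.9, 3.84, 11.2 and 13.5 CPM in the iCre libraries (−5.39, adjusted p = 1.39e-05). *Trdc* is annotated as a T cell receptor δ constant gene. It was at 24.7, 17.1, 23.9 and 37.3 CPM with IL-1β in the LacZ libraries and 0.785, 0.636, 0.893 and 3.21 CPM in the iCre libraries, while *Ptprc*, a marker of all leukocytes, was at 1.28 and 0.577 CPM on average. Without the block the calls were lost for *Vnn3*, *Spib* and *Trdc* (adjusted p = 0.0887, 0.082 and 0.079), and those for *Vnn3* and *Trdc* also without replicate 3 (0.0722 and 0.149). Replicate 1 set the size for *Vnn3*, whose difference of −6.69 became −2.04 without it (adjusted p = 1.0). For *Spib* it became −7.53 from −4.90 without replicate 3.

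*Tlr2*, *Sod2* and *Cxcl1* also had smaller ratios in iCre fibroblasts. *Sod2* was at 184, 133, 132 and 183 CPM with IL-1β and 58, 47.7, 57.2 and 51.9 CPM with TGFβ (−2.17, SE 0.14, adjusted p = 2.45e-07). *Tlr2* was at 32.5, 17.5, 24 and 22.3 CPM with IL-1β and 3.94, 3.59, 5.39 and 6.06 CPM with TGFβ (−2.95, adjusted p = 4.99e-05). *Cxcl1* was at 178, 64.3, 105 and 109 CPM with IL-1β in iCre fibroblasts (−2.54, adjusted p = 0.00159, and 0.078 without the block). *Nos2* was at 7.2, 6.33, 9.12 and 15.2 CPM with IL-1β in iCre fibroblasts, below every LacZ IL-1β library, but its interaction was not called (−3.96, SE 1.36, adjusted p = 0.177). It was called at −5.02 without replicate 2 (adjusted p = 0.0192) and with DESeq2 (0.0423), and its value ranged from −5.02 to −3.17 over the 14 alternatives. *Mmp3* was not called either (−1.38, adjusted p = 0.105), except without replicate 2 (0.0194) and with no filter on low counts (0.0451).

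Among genes higher with TGFβ in LacZ fibroblasts, *Acta2* was at 323, 201, 331 and 263 CPM with IL-1β and 3786, 8363, 4198 and 2442 CPM with TGFβ in iCre fibroblasts, and the difference between the contrasts was −0.40 (SE 0.37, adjusted p = 0.78). *Ptgs2* and *Postn* had differences of −0.11 (SE 0.29) and −0.50 (SE 0.40), and neither was called. *Col1a1*, at 5886, 3506, 4997 and 4516 CPM with IL-1β and 24974, 25111, 24986 and 19819 CPM with TGFβ in iCre fibroblasts, was called (−1.07, adjusted p = 0.00849), a call lost without the block (adjusted p = 0.169) and without replicate 3 (0.106).

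The largest positive differences were those of *Nptx1*, *Sema7a*, *Nxph3*, *Slc14a1* and *Ahsg*. *Nptx1*, a neuronal pentraxin, was at 0.497, 0.896, 1.42 and 1.6 CPM with IL-1β in the LacZ libraries and 56.5, 174, 143 and 177 CPM in the iCre libraries, against 0.661, 3.92, 3.63 and 8.99 CPM with TGFβ in iCre (4.87, SE 0.42, adjusted p = 5.74e-06). *Sema7a*, a membrane-anchored semaphorin, was higher with TGFβ in LacZ fibroblasts (−2.85) and was at 29.6, 56.4, 34.6 and 95.1 CPM with IL-1β and 21.1, 19.4, 40.0 and 92.2 CPM with TGFβ in iCre fibroblasts, where the groups overlapped (interaction 3.45, adjusted p = 0.000412). *Slc14a1*, a urea carrier, was at 5.07, 143, 3.91 and 7.81 CPM with IL-1β in iCre fibroblasts, with replicate 2 far above the others, and its adjusted p of 0.000887 became 0.878 without the block. The calls for *Nxph3* and *Ahsg* were also lost without the block (adjusted p = 0.182 and 0.091), and that for *Ahsg* without replicate 3 (0.0912) and without replicate 4 (0.0512). The difference of 3.07 for *Ahsg* became 3.69 without replicate 1 and 2.64 without replicate 3.

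**Figure D5:**
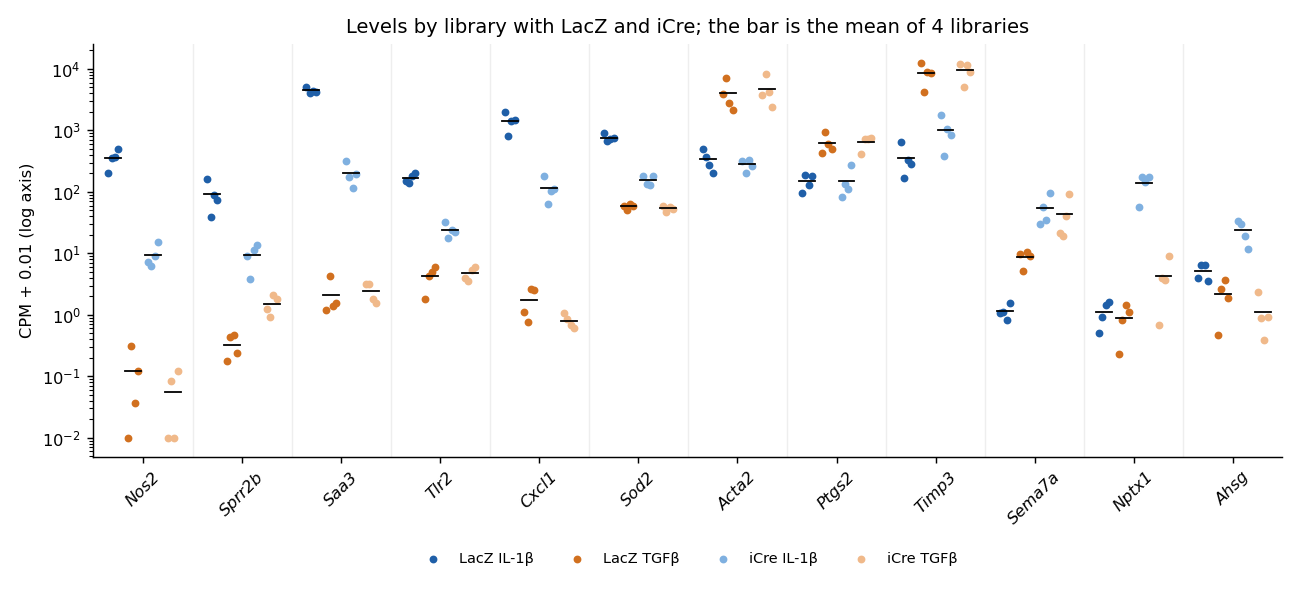
Levels of 12 genes in each LacZ and iCre library with IL-1β (blue) or TGFβ (orange), as CPM + 0.01 on a log axis, with lighter points for iCre and a bar at the mean of 4. From *Nos2* to *Sod2* the iCre IL-1β libraries lie between the LacZ IL-1β libraries and the TGFβ libraries, *Acta2* and *Ptgs2* show the same order under both viruses, and *Nptx1* is highest in iCre with IL-1β.

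By list, the difference between viruses was most frequent among cholesterol synthesis genes, of which 22 of 24 had a called negative interaction and 0 a positive one, or 17 negative without the block. The median log2 fold change of IL-1β over TGFβ was −0.49 in LacZ and −2.06 in iCre libraries. *Cyp51* was at 92.7, 57.8, 74 and 91.1 CPM with IL-1β and 498, 514, 614 and 451 CPM with TGFβ in iCre fibroblasts (−1.43, SE 0.22, adjusted p = 0.00132, and 0.0538 in a fit of all 40 libraries). Its TGFβ libraries had a mean of 519 ± 68.4 CPM in iCre and 518 ± 56.9 CPM in LacZ (SD, n = 4). *Fdps* had a difference of −1.49, a call lost with robust estimation (adjusted p = 0.0501). Of 22 NF-κB genes, 9 had a called negative difference, 6 without the block, among them *Zc3h12a* and *Nfkbia* (−1.39 and −1.25). Negative differences were called for 8 of 29 complement and acute-phase genes (3 without the block), 7 of 41 interferon genes (3), 7 of 29 collagen processing enzymes (0) and 5 of 24 monocyte and lymphocyte chemokines (1). Other lists had calls of both signs. Of 38 paracrine growth factors 5 were positive and 4 negative, and of 29 matricellular and fibrosis genes 3 and 1, in both lists 0 and 0 without the block. Of 30 contractile genes, 1 had a positive and 1 a negative call (0 and 0 without the block), and the list had a median of −1.41 in LacZ and of −1.24 in iCre libraries. *Timp3* had a positive difference (1.28, adjusted p = 0.000786, and 0.602 without the block), with 1777, 377, 1035 and 849 CPM with IL-1β in iCre fibroblasts against 659, 171, 328 and 281 CPM in LacZ fibroblasts.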

How the data were processed

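The values deposited by the authors are raw counts of reads per Ensembl gene, not normalized, from single-end reads aligned with STAR to mm10 and counted with HTSeq 0.10.0 after FastQC (version 0.10.1 per the submitters' processing notes). A stranded TruSeq kit is named in the methods and NEBNext Ultra II in the labels, and the strand setting is not given in the sources used here, so that overlapping antisense genes may not be separated. GENCODE M21 gave names and positions for 52133 of 55414 identifiers, with 99.6% of counts.

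Counts were tested by quasi-likelihood in edgeR 4.0.16 (R 4.3.3), with TMM factors, a replicate block, the libraries compared only (16 for the interaction) and Benjamini-Hochberg adjustment at 0.05. Same-numbered IL-1β and TGFβ libraries deviated together from their group means (correlations of 0.395 to 0.654 over 11722 genes, against −0.41 to 0.32 for different numbers). The pairing itself was taken from the replicate numbers of the labels, which do not say what same-numbered libraries share. Replicates differed by more than counting noise. The 40 libraries held 25360947 to 66160732 counts. Reads carry no molecular identifiers, so that intervals cover counting error only.

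The members and lists were chosen with earlier results of these data known. Named genes are *Nos2*, *Acta2* and *Ptgs2*; *Mmp3*, *Tlr2*, *Sod2*, *Postn*, *Col1a1*, *Il11*, *Lif* and *Cxcl1*; per direction the 10 largest called log2 fold changes at 10 CPM without overlap, the 5 largest differences of mean CPM, up to 4 called members of each list at 1 CPM, and the 5 largest called interactions at 10 CPM. Alternatives were DESeq2 1.42.0, RLE factors, raw library sizes, filterByExpr, no filter, no block, each replicate left out, a minimum log2 fold change of 1, protein-coding genes, all 40 libraries in 1 fit, a GC offset with the block and, chosen after seeing the data, robust estimation. The tests were also run on simulated data in which only well-counted genes were changed. That run does not cover genes with few reads, and its results are not given here. A few genes that the rule names are not reported here.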

Additional observations from a re-analysis of the deposited data

Results flagged for a closer look

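Of the 164 named genes, 42 were screened with IL-1β and with TGFβ, as 84 groups of 4 LacZ libraries. The gap between an extreme library and its neighbour exceeded Dixon's 95% limit 17 times. In 4 of these groups the 3 other libraries were at 0, where any read gives the largest gap, so that these carry no information. The other 13 came from 80 groups, and chance gives about 1 in 20 for normally distributed values. Replicate 2 with TGFβ stood apart for *C1qtnf3* (2108 CPM against 21.2 to 39.4 CPM in the other 3), *Acta1* (106 CPM against 3.48 to 10.6 CPM), *Col8a2* (94.1 CPM against 30.6 to 34.4 CPM), *Slc14a1* (11.4 CPM against 0.0552 to 0.214 CPM), *Saa3* (4.3 CPM against 1.19 to 1.55 CPM) and *Vnn3* (0.047 CPM against 0). Replicate 2 with IL-1β stood apart for *C1qtnf3* (1.98 CPM against 0 to 0.0662 CPM), *Slc14a1* (10.5 CPM against 0.132 to 0.274 CPM) and *Nxph3* (2.06 CPM against 0.596 to 0.773 CPM). Replicate 1 with TGFβ stood apart for *Lif* (76.1 CPM against 44.1 to 46.6 CPM), *Gm32255* (20.0 CPM against 6.14 to 7.91 CPM) and *Slc36a2* (0.083 CPM against 0), and with IL-1β for *Heyl* (1.82 CPM against 0.461 to 0.605 CPM) and *Col8a2* (1.36 CPM against 0.392 to 0.524 CPM). Replicate 3 stood apart for *Csf3* and *Spib* with TGFβ (0.107 and 0.053 CPM against 0) and for *Acan* with IL-1β (0.285 CPM against 0.0331 to 0.0543 CPM). For *Vnn3*, *Slc36a2*, *Csf3* and *Spib* the value is that of 2 to 4 reads. Named genes outside the 42 were not screened, so that this list is not complete. Among them, replicate 2 lay far above the other libraries for *Cnn1* with TGFβ (237 CPM against 23.5 to 41.9 CPM). The same was seen for *Col12a1* with TGFβ (3310 CPM against 892 to 1063 CPM) and *Mylk* with IL-1β (112 CPM against 5.04 to 13.3 CPM).

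The IL-1β over TGFβ contrast differed between iCre and LacZ fibroblasts for 707 genes by the interaction test of edgeR. Among named genes it was lower in iCre, on the log2 scale, for *Tlr2* (−2.95), *Sod2* (−2.17), *Col1a1* (−1.07), *Cxcl1* (−2.54), *Saa3* (−4.71), *Vnn3* (−6.69), *Spib* (−4.90), *Sprr2b* (−5.39) and *Trdc* (−4.04). It was higher in iCre for *Nptx1* (4.87), *Sema7a* (3.45), *Nxph3* (3.23), *Slc14a1* (3.22) and *Ahsg* (3.07). All 14 alternatives kept the call for *Tlr2*, *Sod2*, *Saa3*, *Sprr2b*, *Nptx1* and *Sema7a*, 13 of 14 for *Cxcl1*, *Nxph3* and *Slc14a1*, 12 of 14 for *Col1a1* and *Spib*, 9 of 14 for *Vnn3*, 10 of 14 for *Ahsg* and 10 of 13 for *Trdc*.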

How the results depend on the processing

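With a minimum log2 fold change of 1, the counts were 3071 for IL-1β against TGFβ in LacZ, 2436 for IL-1β and 4789 for TGFβ against CTRL, 3030 for IL-1β against TGFβ in iCre and 386 for the interaction, by construction fewer. Leaving out each replicate number gave 6264 to 7383, 6914 to 8564, 8692 to 10811, 6457 to 8830 and 273 to 862 genes in the same order, the lowest interaction count without replicate 3. Without the replicate block the counts were 6281 for the direct contrast, 5208 for IL-1β against CTRL and 125 for the interaction; DESeq2 gave 1267 for the interaction. The cause of these shifts was not tested. Of these counts, 10 differed from the values reported by over 1.5 times: those with the minimum fold change, those without the block for IL-1β against CTRL and for the interaction, and the interaction with DESeq2 and without replicate 3 or 4. All 65 remaining counts, printed here or not, were within 1.5 times, the replicate-block fit with a GC content offset included (7917 for the direct contrast). Of the log2 fold changes of 164 named genes, 2200 kept direction and side of the threshold, 90 kept direction only, and 3 changed sign: *Lif* without replicate 1 (0.047, with a range of −0.35 to 0.047 over the 4 omissions), and *Slc14a1* without the replicate block (−0.083) and without replicate 4 (−0.0093, with a range of −0.0093 to 0.83), neither gene being called. Of the list counts, 567 were within 1.5 times and 93 were not. Depth limits genes with a few reads in 1 group, whose fold changes rest on those reads.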
